A study of Mus musculus with 9 samples.

Results

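Cytoplasmic ribosomal protein genes were followed in long-term hematopoietic stem cells (LT-HSC) of 3 mouse genotypes. Members were the genes of the deposited table whose symbol begins with Rpl, Rps or Rplp followed by a number, with at most a short suffix for a paralog, so that ribosomal S6 kinases, symbols of pseudogenes and unnamed models were left out. The rule took 82 of the 22322 genes in the table, of which 51 encode proteins of the large subunit and 31 of the small subunit. The rule itself uses symbols only. The question was how the large and the small subunit genes compare over the 3 genotypes.

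The study compared 3 WT, 3 Cxcl10-/- and 3 Cxcr3-/- mice, all of strain C57BL/6 and 6 to 8 weeks old, with no other allele or treatment named. Cxcl10 is a chemokine induced by interferon and Cxcr3 is its receptor; how either allele was made is not given, and the labels name no promoter or Cre that would limit the loss to a cell type. Each library came from the 500 to 800 bone marrow cells sorted from a single mouse as lacking lineage markers (Lin-), positive for Sca-1 and c-Kit, negative for CD135 and CD48 and positive for CD150, with the RNA amplified as whole-transcriptome cDNA before a transposase-based library was made. In such bulk libraries, fewer cells of a type and less RNA per cell cannot be told apart.

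A ribosome joins a large and a small subunit, each a scaffold of ribosomal RNA carrying ribosomal proteins that are made in near-equal numbers and assembled in the nucleolus. Their mRNAs are among the most abundant of a cell and mostly start with a C followed by a run of pyrimidines, the 5′ terminal oligopyrimidine (TOP) motif, through which mTOR signalling and Larp1 set their translation. Blood stem cells are known for a low rate of protein synthesis, and loss of a single copy of several of these genes causes Diamond-Blackfan anaemia or, in the 5q- syndrome, a failure of red cell formation.

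The start of 6 members is shown because it carries the TOP motif, and because these genes differ in how they responded below. In the main edgeR fit Rps6, Rps10 and Rplp2 rose in Cxcl10-/- cells, Rps27 fell, and Rps18 and Rpl35a passed no test. Each line gives the 10 bases before and the 20 from the annotated start. The bases were read on the sense strand from the RefSeq promoters of build GRCm38.p6. Capitals mark the pyrimidine run that begins at the start. The starts of Rps10, Rps27 and Rpl35a were also annotated in GENCODE M21, and those of Rps6, Rplp2 and Rps18 were not. The places are chr4:86857348-86857377 on the minus strand for Rps6, chr17:27635225-27635254 on the minus strand for Rps10, chr7:141447641-141447670 on the plus strand for Rplp2, chr3:90213629-90213658 on the minus strand for Rps27, chr17:33955646-33955675 on the minus strand for Rps18 and chr16:33056472-33056501 on the plus strand for Rpl35a.
Rps6: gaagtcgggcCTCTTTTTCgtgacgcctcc
Rps10: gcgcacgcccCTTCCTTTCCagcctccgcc
Rplp2: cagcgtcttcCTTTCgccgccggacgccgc
Rps27: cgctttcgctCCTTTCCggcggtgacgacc
Rps18: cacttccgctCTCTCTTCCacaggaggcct
Rpl35a: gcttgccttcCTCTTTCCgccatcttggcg

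There, 62 members had 74 promoters, and 13 of these or 17.6% had a C at the annotated start followed by at least 4 more C or T on the sense strand, against 2.32% of the 11149 promoters of tested genes and 2.51% of all 32851 promoters. A run of at least 8 C or T on the sense strand within 20 bases of the start, a looser form that contains most cases of the first, was present in 31 of the 74 or 41.9%, against 16.0% of the promoters of tested genes. A match is a description of letters at an annotated start, and a start placed a few bases away hides the motif.

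The libraries held 12098498 to 17904629 expected counts. The mitochondrially encoded share was 12.9 ± 0.258% for WT, 3.89 ± 0.287% for Cxcl10-/- and 10.8 ± 0.479% for Cxcr3-/- libraries (SD, n = 3 each). The summed level of 12 LT-HSC markers was 2015 to 2298 CPM (expected counts scaled to a common library total with TMM factors) in WT, 1761 to 2146 in Cxcl10-/- and 2085 to 2250 in Cxcr3-/- libraries, with no marker at 0 in any group. Of these, Kit, the c-Kit of the sort, fell in Cxcl10-/- cells, with 550, 589 and 564 CPM in WT and 409, 359 and 243 in Cxcl10-/- libraries (log2 -0.75, edgeR adjusted p = 0.026). Slamf1, the CD150 of the sort, had 19.9, 20.5 and 14.3 CPM in WT and 1.78, 1.82 and 11.3 in Cxcl10-/- libraries (edgeR adjusted p = 0.119). Markers of endothelial cells, which the sort should remove, summed to 162 to 177 CPM in WT, 588 to 764 in Cxcl10-/- and 121 to 183 in Cxcr3-/- libraries, with 5 of the 12 higher in Cxcl10-/- than in WT cells. The median log2 fold change of the 12 was 4.65. Stromal and bone cell markers summed to 99.4 to 107, 218 to 775 and 98.2 to 129 CPM in the same order. Most of their WT sum was Runx2, with 84.2, 92.7 and 85.4 CPM in WT and 66.0, 59.4 and 43.1 in Cxcl10-/- libraries (edgeR adjusted p = 0.108). Of the 6 tested stromal markers, 4 rose in Cxcl10-/- over WT and 0 fell, with a median log2 fold change of 6.04. Erythroid markers summed to 1616 to 2130, 889 to 1295 and 1627 to 1753 CPM. Most of the erythroid sum was Car2, a carbonic anhydrase, which fell from 2085, 1562 and 1542 CPM in WT to 825, 868 and 720 in Cxcl10-/- libraries (edgeR adjusted p = 0.00197). The globin gene Hba-a1 rose (log2 2.94, edgeR adjusted p = 0.0215), and the median log2 fold change of the 8 tested erythroid markers was 1.84. Cxcl10 itself had 0 counts in every Cxcl10-/- library, against 36, 84 and 3 for WT and 112, 553 and 176 for Cxcr3-/- libraries. Cxcr3 had 0, 0 and 8 counts in WT and 0 elsewhere, so its level does not check the Cxcr3-/- label. All of these differences move with genotype, and their part in the results on ribosomal protein genes was not tested.

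Ribosomal protein mRNAs of WT cells were abundant and close to each other in level. Between genes, levels are given as FPKM, which is per length. Without Rpl3l, Rpl10l and Rpl39l, the paralogs at or near 0, the median of the other 79 members in WT was 1362 FPKM, and 66 of them lay within 2-fold of it. Among the highest were Rps14, the small subunit gene of the 5q- syndrome, with 4347, 4598 and 5119 FPKM in the 3 WT libraries, and Rps18, which sits at the head of the small subunit, with 4280, 4109 and 4707. These overlapped between libraries, so their order is not beyond the spread. Rps27 and Rps19, the gene most often mutated in Diamond-Blackfan anaemia, stood at 3679 ± 199 and 3393 ± 106 FPKM (SD, n = 3).

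At the low end, Rpl3l, a form known from muscle, had 0 counts in all 9 libraries, and Rpl10l, known from testis, had 1 count in Cxcl10-/- replicate 2 and 3 counts in Cxcr3-/- replicate 2 and 0 in the rest. Rpl39l, also known from testis, had 1.81 ± 0.330 FPKM and Rpl7l1, a paralog of Rpl7, 52.8 ± 9.37 FPKM in WT (SD, n = 3). Rps20 had 195 ± 18.7 FPKM, but its FPKM was divided by the longest length of any member, 3706 nt, which lowers its per-length level; in CPM, 722, 710 and 815 in WT, it lay among the other members. The 48 large subunit members of the 79 had a median of 1265 FPKM in WT and the 31 small subunit members one of 1736 FPKM.

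**Figure D1:**
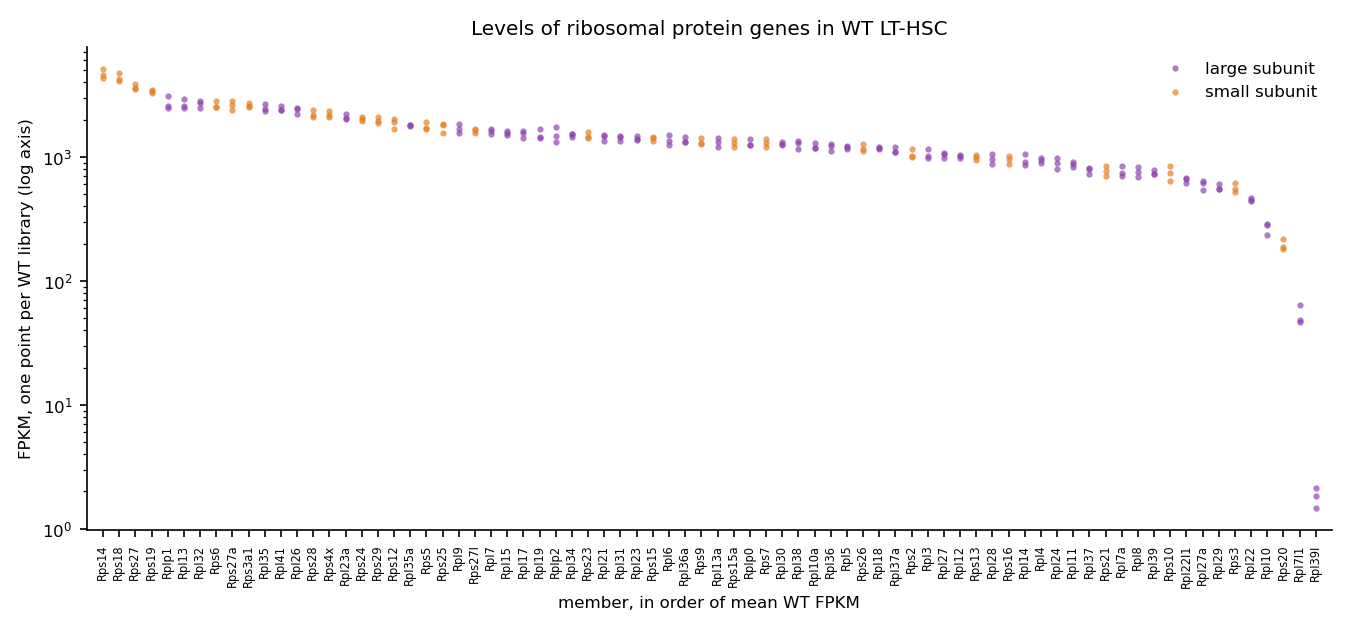
FPKM (log axis) of 76 members above 1 FPKM in the 3 WT libraries, 1 point a library, in order of the mean and coloured by subunit. Most members lie near the median of 1362 FPKM, and only Rpl10, Rps20, Rpl7l1 and Rpl39l stand well below.

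Members took a larger share of the counts in both knockouts than in WT. They held 8.57, 8.41 and 9.27% of all expected counts of the WT libraries, 11.4, 10.3 and 11.8% in Cxcl10-/- and 10.6, 9.63 and 11.0% in Cxcr3-/- libraries. Neither knockout overlapped WT. The share also moves with what else is in a library. Of the counts that were not mitochondrially encoded, members took 9.86, 9.67 and 10.6% in WT, 11.9, 10.7 and 12.3% in Cxcl10-/- and 11.9, 10.8 and 12.2% in Cxcr3-/- libraries, so that on this scale the highest WT library came close to the lowest library of each knockout.

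The large to small subunit ratio lay a few percent apart between the genotypes. The ratio of summed FPKM of large over small subunit members does not depend on how a library is scaled. It was 1.164, 1.131 and 1.145 in WT, 1.213, 1.206 and 1.217 in Cxcl10-/- and 1.104, 1.124 and 1.113 in Cxcr3-/- libraries. The groups did not overlap, and no test was run on this score: the ratio was highest in Cxcl10-/- cells at 1.21 ± 0.00589, followed by WT at 1.15 ± 0.0168 and Cxcr3-/- at 1.11 ± 0.0101 (SD, n = 3). With each of the 82 members left out in turn, every Cxcl10-/- library stayed above every WT library in 82 of 82 cases, and every Cxcr3-/- library stayed below every WT library in 80 of 82; Rps14 was among the exceptions.

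How the subunits are summed changed the ratio more than the genotypes did. With summed expected counts, which are not per length, the ratio was 1.284 to 1.315 in Cxcl10-/- and 1.244 to 1.287 in WT libraries, which then overlapped. With the median FPKM of the members of each subunit, the ratio was 0.686 to 0.733 in WT, 0.734 to 0.767 in Cxcl10-/- and 0.704 to 0.719 in Cxcr3-/- libraries, so Cxcl10-/- cells stayed above WT and Cxcr3-/- cells did not stay below it. Summed FPKM of small subunit members were 58165 ± 2992 in WT, 69676 ± 5762 in Cxcl10-/- and 71196 ± 5392 in Cxcr3-/- cells, and those of large subunit members 66679 ± 3496, 84482 ± 7364 and 79234 ± 5495 (SD, n = 3), so both sums were above WT in both knockouts.

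**Figure D2:**
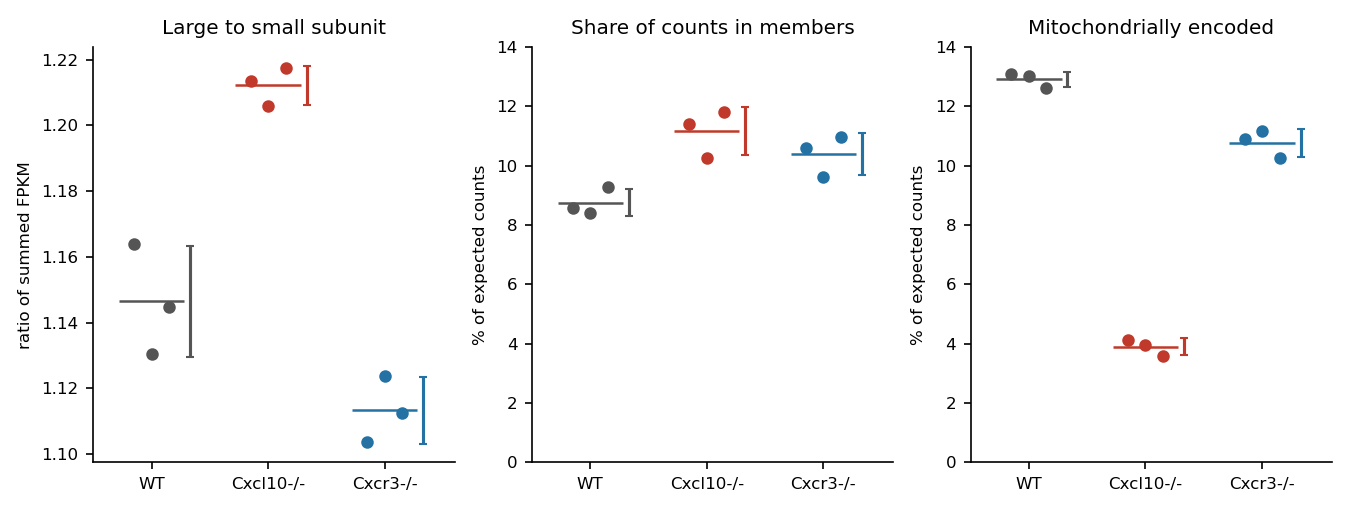
Per library, the ratio of summed FPKM of large to small subunit members (axis not from 0), the share of expected counts in the 82 members and the share in mitochondrially encoded genes. Lines are means and bars SD over 3 libraries; the 3 genotypes do not overlap in the ratio, with Cxcl10-/- highest at 1.206 to 1.217.

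In Cxcl10-/- cells, 17 of the 80 tested ribosomal protein genes rose over WT and 1 fell, while 3.52% of all 10866 genes tested rose and 3.7% fell. Those that rose were 9 of 49 large subunit and 8 of 31 small subunit genes, led by Rpl8 at 2.05-fold, Rps15 at 1.77-fold and Rps3 at 1.74-fold; the gene that fell was Rps27. The median log2 fold change was 0.26 over the members, 0.32 for the large and 0.19 for the small subunit, against 0.06 over all genes tested. The log2 fold change was above 0 for 59 of 80 members, against 53.7% of all genes. Members ran from -0.64 to 1.04, so some were below WT while others were well above. The 3 libraries of each group did not overlap for 37 members that were higher, against 14.8% of all genes, and for 8 that were lower, against 15.4%. Called here means an adjusted p under 0.05 in edgeR's quasi-likelihood test with Benjamini-Hochberg adjustment over all genes tested.

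Rpl8, a protein near the peptidyl transferase centre, had 636, 662 and 718 CPM in WT, 1408, 1248 and 1480 in Cxcl10-/- and 935, 770 and 979 in Cxcr3-/- libraries. All Cxcl10-/- libraries were above all others, and the log2 fold change over WT was 1.04 ± 0.13 (SE, edgeR adjusted p = 0.00197). Rpl19, which reaches across to the small subunit, had 1177, 1087 and 1280 CPM in WT, 1805, 1970 and 2000 in Cxcl10-/- and 1212, 1292 and 1273 in Cxcr3-/- libraries. It rose by a log2 fold change of 0.70 ± 0.11 in Cxcl10-/- cells (edgeR adjusted p = 0.00432), while Cxcr3-/- libraries lay around the highest WT library. Rpl3, another protein of the catalytic centre, and Rpl21, Rpl9 and Rpl26 of the large subunit rose by 0.50 to 0.59 on the log2 scale, with edgeR adjusted p from 0.011 to 0.0478.

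The stalk recruits translation factors and is built from Rplp0, Rplp1 and Rplp2. Rplp2 had 620, 656 and 772 CPM in WT, 1254, 860 and 1164 in Cxcl10-/- and 1263, 863 and 1258 in Cxcr3-/- libraries, so every library of both knockouts was above WT. It rose in Cxcl10-/- cells by a log2 fold change of 0.68 ± 0.18 (edgeR adjusted p = 0.044). Rplp0, the base of the stalk, had 1814, 1746 and 1938 CPM in WT, 2675, 2506 and 2935 in Cxcl10-/- and 1637, 1952 and 1879 in Cxcr3-/- libraries, and rose in Cxcl10-/- cells by 0.56 ± 0.11 (edgeR adjusted p = 0.011). Rplp1 did not pass the test at 0.32 ± 0.13 (edgeR adjusted p = 0.154).

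Rpl5 and Rpl11 join the 5S ribosomal RNA in a particle that binds Mdm2, the ubiquitin ligase of p53, when ribosome assembly stalls. Rpl5 had 2617, 2400 and 2539 CPM in WT, 3467, 3869 and 4707 in Cxcl10-/- and 2711, 2653 and 3115 in Cxcr3-/- libraries; both knockouts lay above WT, and Cxcl10-/- well above. It rose in Cxcl10-/- cells by a log2 fold change of 0.67 ± 0.12 (edgeR adjusted p = 0.00787). Rpl11 had 695, 637 and 689 CPM in WT and 997, 773 and 1002 in Cxcl10-/- libraries, and at 0.46 ± 0.13 just missed the threshold (edgeR adjusted p = 0.0544).

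In the small subunit, Rps3, at the channel where mRNA enters, had 1068, 1088 and 1201 CPM in WT, 1721, 1925 and 2184 in Cxcl10-/- and 1003, 1148 and 1171 in Cxcr3-/- libraries. The Cxcl10-/- libraries stood alone, with a log2 fold change of 0.80 ± 0.12 over WT (edgeR adjusted p = 0.00449). Rps6, the substrate of the S6 kinases downstream of mTOR, had 2384, 2297 and 2526 CPM in WT, 3841, 3493 and 4292 in Cxcl10-/- and 2581, 2441 and 2863 in Cxcr3-/- libraries. It rose by 0.69 ± 0.11 in Cxcl10-/- cells (edgeR adjusted p = 0.00449), with Cxcr3-/- libraries overlapping WT.

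Rps15, needed for late maturation of the small subunit, had 767, 687 and 739 CPM in WT, 1248, 1067 and 1558 in Cxcl10-/- and 726, 785 and 772 in Cxcr3-/- libraries, a log2 fold change of 0.82 ± 0.14 in Cxcl10-/- cells (edgeR adjusted p = 0.00731). Rps9, which helps set the accuracy of decoding, had 1052, 978 and 1085 CPM in WT and 1783, 1563 and 1738 in Cxcl10-/- libraries, and rose by 0.71 ± 0.12 (edgeR adjusted p = 0.00644). Rps10 and Rps4x rose by 0.51 and 0.46 on the log2 scale, with edgeR adjusted p of 0.0448 and 0.029. For each of these genes the 3 Cxcl10-/- libraries were all above the 3 WT libraries.

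Rps27, a zinc-binding protein of the small subunit, had 1304, 1284 and 1370 CPM in WT, 1029, 730 and 941 in Cxcl10-/- and 1445, 1416 and 1486 in Cxcr3-/- libraries. The 3 genotypes did not overlap, and the gene fell by 0.55 ± 0.13 on the log2 scale in Cxcl10-/- cells (edgeR adjusted p = 0.0276). The other 7 members whose Cxcl10-/- libraries were all below WT did not pass the test; among them were Rpl10, Rpl22l1, Rpl39, Rps19, Rps26 and Rps29, with log2 fold changes from -0.64 to -0.22. Rps26 had 823, 812 and 886 CPM in WT and 692, 436 and 657 in Cxcl10-/- libraries (edgeR adjusted p = 0.0838), and Rps19 had 2294, 2129 and 2259 CPM in WT and 2043, 1753 and 1926 in Cxcl10-/- libraries (edgeR adjusted p = 0.192).

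**Figure D3:**
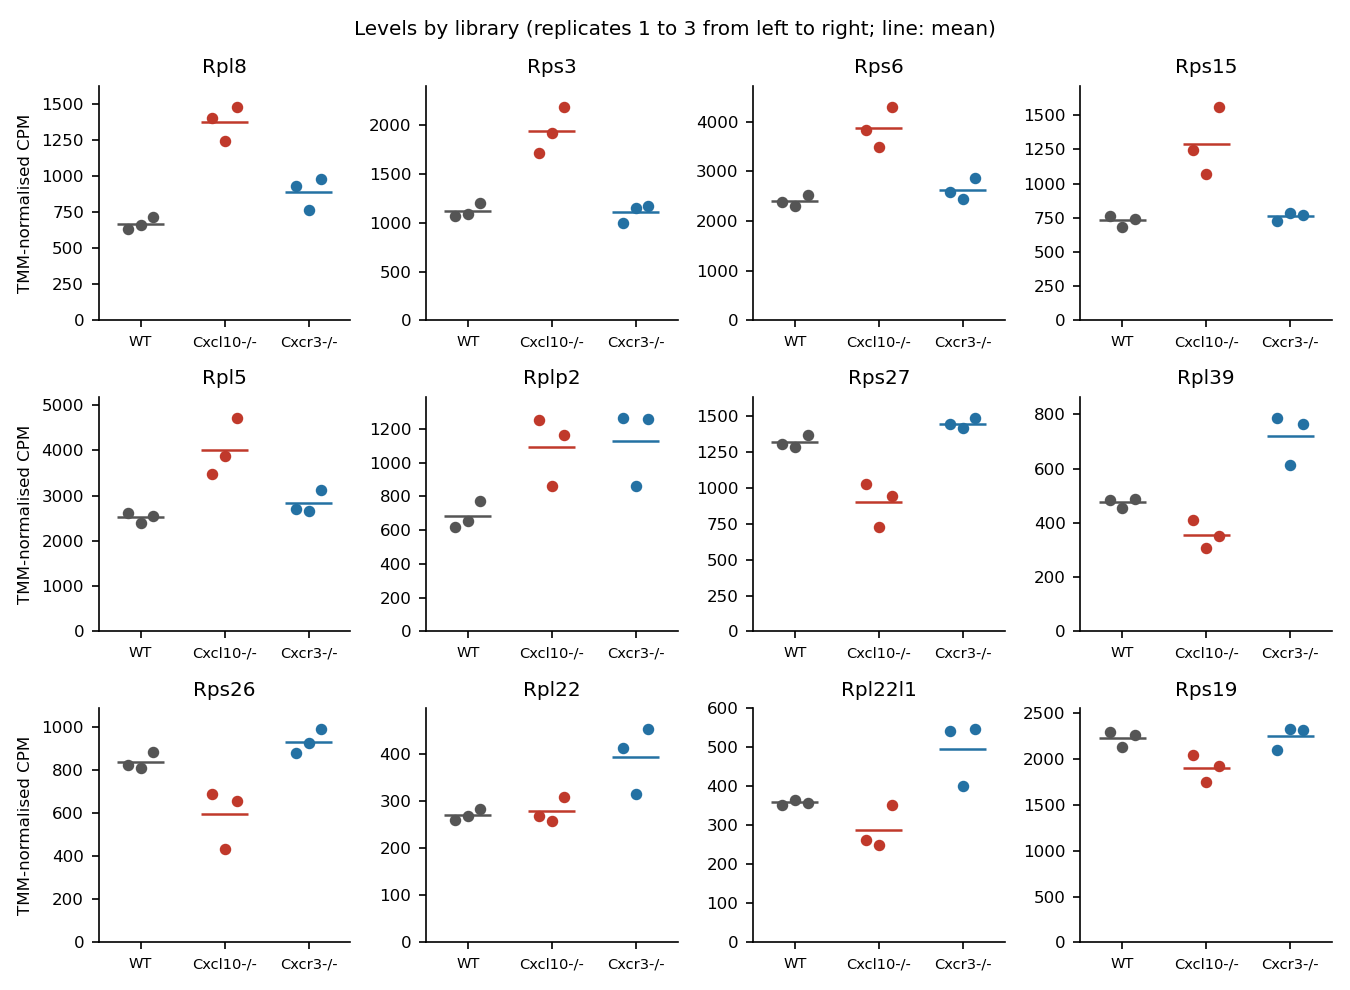
TMM-normalised CPM of 12 members in each library (from 0; points are replicates 1 to 3 from left to right, lines are means). Rpl8, Rps3, Rps6, Rps15 and Rpl5 are highest in Cxcl10-/- cells, Rplp2 is above WT in both knockouts, and Rps27 and Rpl39 are low in Cxcl10-/- and high in Cxcr3-/- cells.

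How many members were called depended on single libraries and on the scaling. Without WT replicate 1, 2 or 3 the number that rose was 8, 6 or 9, without Cxcl10-/- replicate 2 it was 30, and without Cxcl10-/- replicate 3 it was 10; Rps27 lost its call without any 1 of the WT libraries. Scaling to library totals called 36 higher, limma on log2(FPKM + 1) 34 and DESeq2 30, while correcting each library for GC content and transcript length gave 13 higher and 7 lower in place of 17 and 1. The share of all genes tested that rose moved too, from 3.52% to 0.902, 0.644 and 0.92% without WT replicate 1, 2 and 3, and to 3.87 and 3.27% without Cxcl10-/- replicate 2 and 3. It was 5.21% with library totals, 6.1% with limma on log2(FPKM + 1) and 6.61% with DESeq2, and with the GC content and length correction 2.86% rose and 2.07% fell. With that correction 20 members were called, of which only 10 were among the 18 called before. Rpl26, Rplp2, Rps9, Rps10, Rps15 and Rplp0 were among those that lost their calls. Rps15 and Rplp0 then had log2 fold changes of 0.28 and 0.22 (edgeR adjusted p = 0.231 and 0.185). Rplp0 lost its call without WT replicate 1 or 2 as well. With the GC content and length correction, the large and small subunit medians were 0.18 and 0.15 in Cxcl10-/- over WT, and 0.31 for both in Cxcr3-/- over WT. Rpl8, Rpl19, Rps3 and Rps6 were called in 20 of 20 alternatives, Rplp2 in 13 and Rps10 in 8.

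Members moved together from library to library. Their median log2 difference from the WT mean was 0.02, -0.07 and 0.06 in the 3 WT libraries, 0.33, 0.07 and 0.43 in Cxcl10-/- and 0.22, 0.11 and 0.31 in Cxcr3-/- libraries. Replicate 2 was the lowest of its group for 60, 68 and 53 of 80 members in WT, Cxcl10-/- and Cxcr3-/- cells. Replicate 3 was the highest for 51, 56 and 65. Cxcl10-/- replicate 2 also had the highest summed stromal markers of the 9 libraries, 775 CPM against 276 and 218 in the other Cxcl10-/- libraries. In WT and Cxcr3-/- libraries these markers summed to 99.4 to 107 and 98.2 to 129 CPM. The part of these sums in the ribosomal protein levels was not tested. Between libraries of a group, the median coefficient of variation of the members was 5.92% in WT, 13.3% in Cxcl10-/- and 8.71% in Cxcr3-/- cells, against 9.19, 12.8 and 13.8% for the 342 other genes as abundant.

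In Cxcr3-/- cells no ribosomal protein gene passed the test against WT, and neither did any of the 10866 genes tested (0%). With limma, 0 members and 0% of all genes were called. DESeq2 called 2 members, Rpl39 and Rplp2, both higher, beside 0.12% of all genes higher and 0.506% lower. Most members were nonetheless above WT. The log2 fold change was above 0 for 68 of 80 members, against 52.1% of all genes, and the 3 Cxcr3-/- libraries were all above the 3 WT libraries for 44 members, against 9.81% of all genes, and all below for 1, against 9.04%. At an unadjusted p under 0.05, 25 members were higher, against 2.37% of all genes, and 1 was lower, against 3.9%. Of the 25, 14 were among the 31 small subunit and 11 among the 49 large subunit genes. The median log2 fold change was 0.21 over members, 0.20 for the large and 0.24 for the small subunit, against 0.02 over all genes. Members of a library shared a deviation, as above, so these genes do not count as independent observations.

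The members farthest above WT in Cxcr3-/- cells, apart from Rpl39l with few counts, were Rplp2 with a log2 fold change of 0.72 ± 0.18, Rps21 with 0.68 ± 0.21, Rpl39 with 0.60 ± 0.15 and Rpl22 with 0.54 ± 0.16 (SE; edgeR adjusted p from 0.602 to 0.642). Rps21, of the small subunit, had 296, 309 and 336 CPM in WT, 391, 229 and 336 in Cxcl10-/- and 546, 385 and 573 in Cxcr3-/- libraries. Rpl22 binds RNA outside the ribosome too and is needed in mice for T cell development. It had 260, 270 and 284 CPM in WT, 270, 258 and 309 in Cxcl10-/- and 413, 315 and 453 in Cxcr3-/- libraries, which did not overlap WT.

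Compared directly, the knockouts differed in both directions. In Cxcr3-/- relative to Cxcl10-/- cells, 7 of 80 members were higher, against 5.1% of all genes tested, and 10 lower, against 5.41%; the libraries did not overlap for 13 members that were higher (14.5% of all genes) and 18 that were lower (14.4%). The shares among members that were higher were therefore not far from those of all genes. The 7 were 2 of the large subunit, Rpl39 and Rpl22l1, and 5 of the small subunit, among them Rps27, Rps26, Rps29 and Rps27a. The 10 were 5 of each subunit, with Rpl8, Rpl19, Rplp0, Rpl5 and Rpl4 of the large and Rps3, Rps15, Rps6 and Rps9 among those of the small subunit. The median log2 fold change was -0.05 over members, -0.10 for the large and 0.03 for the small subunit, against -0.05 over all genes.

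Rpl39, a small protein of the exit tunnel, had 482, 456 and 489 CPM in WT, 410, 307 and 350 in Cxcl10-/- and 785, 613 and 764 in Cxcr3-/- libraries. The 3 genotypes did not overlap, and the level was 2.03-fold higher in Cxcr3-/- than in Cxcl10-/- cells (log2 1.02 ± 0.15, edgeR adjusted p = 0.00267). Rps27 was 1.61-fold higher (0.69 ± 0.13, edgeR adjusted p = 0.00828), and Rps29 with 812, 754 and 838 CPM in WT, 749, 480 and 710 in Cxcl10-/- and 1028, 950 and 1067 in Cxcr3-/- libraries was higher by 0.65 ± 0.16 (edgeR adjusted p = 0.0239). For these genes and for Rpl22l1 the WT libraries lay between those of the knockouts. In the other direction Rps3 was lower by a log2 fold change of -0.81 ± 0.12 (edgeR adjusted p = 0.00275), and Rps15 by -0.76 ± 0.14 (edgeR adjusted p = 0.00782).

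Rps27a, made as a fusion with ubiquitin, and Rpl4, which reaches into the exit tunnel, had edgeR adjusted p of 0.0472 and 0.0365. The split between higher and lower turned with the correction for GC content and length: 17 members were then higher and 4 lower, against 3.78 and 4.63% of all genes, and the median moved from -0.05 to 0.19. The large subunit median moved from -0.10 to 0.17 and the small subunit median from 0.03 to 0.24. Rpl39, Rps27 and Rps3 were called in every alternative. Without single libraries 2 to 9 members were higher and 6 to 12 lower.

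**Figure D4:**
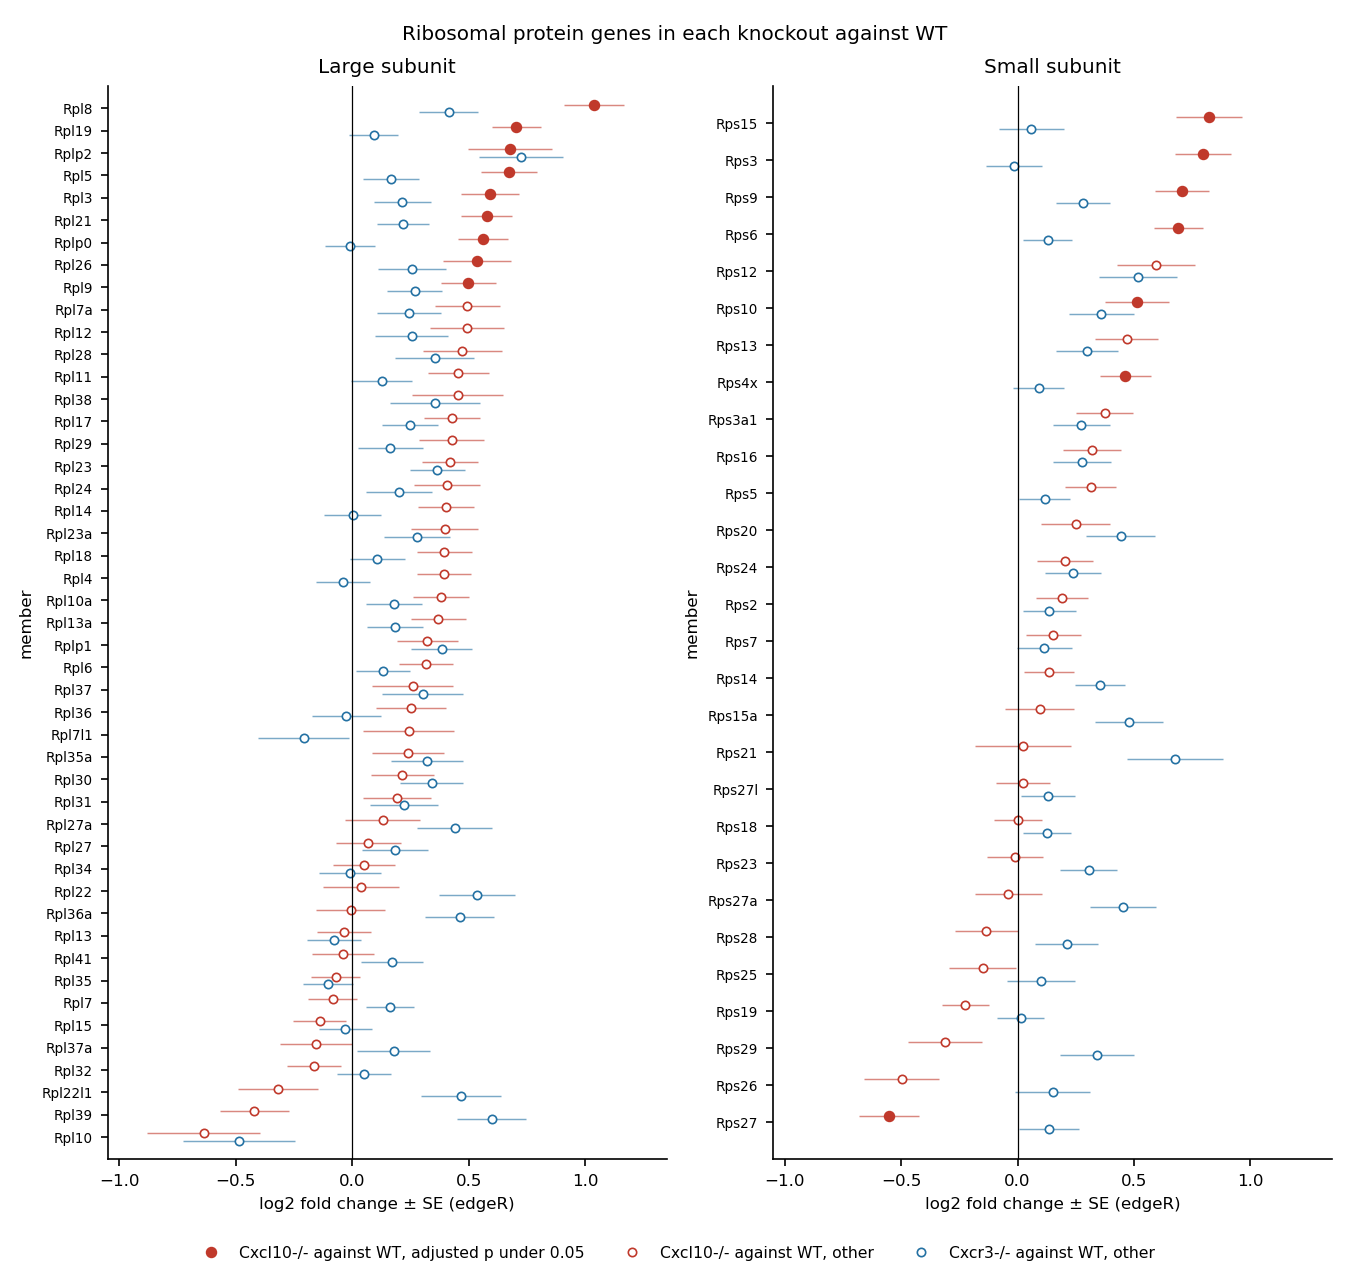
Log2 fold change ± SE (edgeR) of 75 tested members in each knockout against the same 3 WT libraries, by subunit and in order of Cxcl10-/- against WT; filled points have an adjusted p under 0.05. Rpl39l is left out for its SE of 1.64; 15 filled points lie above 0 and 1, Rps27, below.

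A list of 11 members known from Diamond-Blackfan anaemia or the 5q- syndrome was drawn up by hand. It may leave out other members known from these diseases, so its counts and ranges hold for the listed genes only. The 11 lay on both sides of WT in Cxcl10-/- cells, with log2 fold changes from -0.50 to 0.67. Of the 11, 3 rose in Cxcl10-/- over WT, Rpl5, Rpl26 and Rps10, beside 17 of 80 members and 3.52% of all genes tested. In Cxcr3-/- over WT the 11 ran from 0.01 to 0.45 and none passed the edgeR test, as for all genes tested. Rpl26, at the rim of the exit tunnel, had 1373, 1197 and 1316 CPM in WT, 1848, 1505 and 2284 in Cxcl10-/- and 1580, 1389 and 1677 in Cxcr3-/- libraries (0.54 ± 0.15, edgeR adjusted p = 0.0478), so the knockouts were both above WT. Rps10 had 503, 433 and 549 CPM in WT, 710, 675 and 734 in Cxcl10-/- and 647, 559 and 701 in Cxcr3-/- libraries (0.51 ± 0.14, edgeR adjusted p = 0.0448). In the main edgeR fit Rpl11, Rpl35a, Rps7, Rps14, Rps19, Rps24 and Rps26 passed no test against WT. Their log2 fold changes ran from -0.50 for Rps26 to 0.46 for Rpl11 in Cxcl10-/- cells. Alternatives called some of them in Cxcl10-/- against WT, Rpl11 and Rps26 with DESeq2 and Rps19 with the GC content and length correction. Rpl38, whose loss in mice alters the translation of Hox mRNAs, had 521, 433 and 480 CPM in WT, 752, 460 and 750 in Cxcl10-/- and 556, 550 and 727 in Cxcr3-/- libraries. It passed no test in the main fit (0.45 ± 0.19 in Cxcl10-/- cells, edgeR adjusted p = 0.175) but was called without Cxcl10-/- replicate 2.

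Among the paralogs, Rps27l, with a mean of 1635 FPKM in WT, lay above the median of the members and Rpl22l1, with 651 FPKM, below it. Rpl22l1, which Rpl22 is known to repress in mice, had 352, 366 and 358 CPM in WT, 263, 248 and 351 in Cxcl10-/- and 542, 400 and 546 in Cxcr3-/- libraries. It was higher in Cxcr3-/- than in Cxcl10-/- cells by 0.79 ± 0.17 on the log2 scale (edgeR adjusted p = 0.0159) and passed no test against WT. Rps27l, a p53 target in human cells, had 889, 864 and 796 CPM in WT, 871, 813 and 905 in Cxcl10-/- and 865, 913 and 1011 in Cxcr3-/- libraries, which overlapped. Rpl7l1 lay between 91 and 152 CPM in all 9 libraries and Rpl39l at 17, 23 and 20 expected counts in the WT, 0, 64 and 0 in the Cxcl10-/- and 31, 30 and 82 in the Cxcr3-/- libraries.

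Near-identical copies change what a member's count means. Rpl10, on the X chromosome, had 244, 193 and 234 CPM in WT, 146, 154 and 131 in Cxcl10-/- and 143, 227 and 108 in Cxcr3-/- libraries, the lowest log2 fold change of any member in Cxcl10-/- cells (-0.64 ± 0.24, edgeR adjusted p = 0.129). The row of its pseudogene Rpl10-ps3 held far more counts and moved the other way, with 1324, 1257 and 1456 CPM in WT, 2021, 1864 and 1988 in Cxcl10-/- and 1695, 1581 and 1832 in Cxcr3-/- libraries (0.54 ± 0.11 in Cxcl10-/- cells, edgeR adjusted p = 0.0116). Added together, Rpl10 and this copy had a log2 fold change of 0.42 ± 0.10 in Cxcl10-/- cells (edgeR adjusted p = 0.0281). The level and direction of Rpl10 alone are therefore uncertain. For Rps27, the copy Rps27rt had 188, 195 and 233 CPM in WT and 190, 118 and 140 in Cxcl10-/- libraries, and the sum fell by 0.54 on the log2 scale (edgeR adjusted p = 0.0313), close to the value for Rps27 alone. In all, 21 members had a fractional count in at least 1 library, the mark of reads shared between genes.

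The other X-linked members, Rpl36a, Rpl39 and Rps4x, had log2 fold changes of -0.01, -0.42 and 0.46 in Cxcl10-/- cells, so genes of this chromosome did not move together. The 82 members lie on 19 chromosomes.

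Members of different length lay at different medians. Members are short, with a median transcript of 696.5 nt against 2054 nt over all genes tested, by GENCODE M21. The length implied by the deposited counts and FPKM put some members on the other side of 700 nt. It was 579 nt for Rpl22 against 2048 by GENCODE, 405 against 772 for Rpl28 and 1058 against 696.5 for Rpl23. The classes and correlations below use the GENCODE lengths. Of the 40 tested members of up to 700 nt, without Rpl39l, 5 rose and 1 fell in Cxcl10-/- over WT with a median log2 fold change of 0.16, and of the 39 longer ones 12 rose and 0 fell with a median of 0.38. In Cxcr3-/- over WT the medians were 0.22 and 0.17, and between the knockouts 0.07 and -0.18. Across members, Spearman's rho between length and log2 fold change was 0.25, -0.17 and -0.35 in the 3 comparisons (n = 79 genes, which share their libraries), and between GC content and log2 fold change 0.22, -0.25 and -0.33. Over all other genes tested, length had a rho of -0.12, 0.16 and 0.21, opposite in sign to that of the members, and GC content 0.44, 0.20 and -0.30. Over the 288 other genes of 350 to 2100 nt that were as abundant, length had a rho of -0.17, -0.17 and 0.10. Its sign was then the same as for members in Cxcr3-/- over WT and opposite in the other comparisons. GC content had a rho of 0.53, 0.09 and -0.44 over these 288 genes. Members with and without the TOP start had medians of 0.24 (n = 13) and 0.29 (n = 46) in Cxcl10-/- over WT, 0.32 and 0.18 in Cxcr3-/- over WT, and 0.05 and -0.06 between the knockouts.

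**Figure D5:**
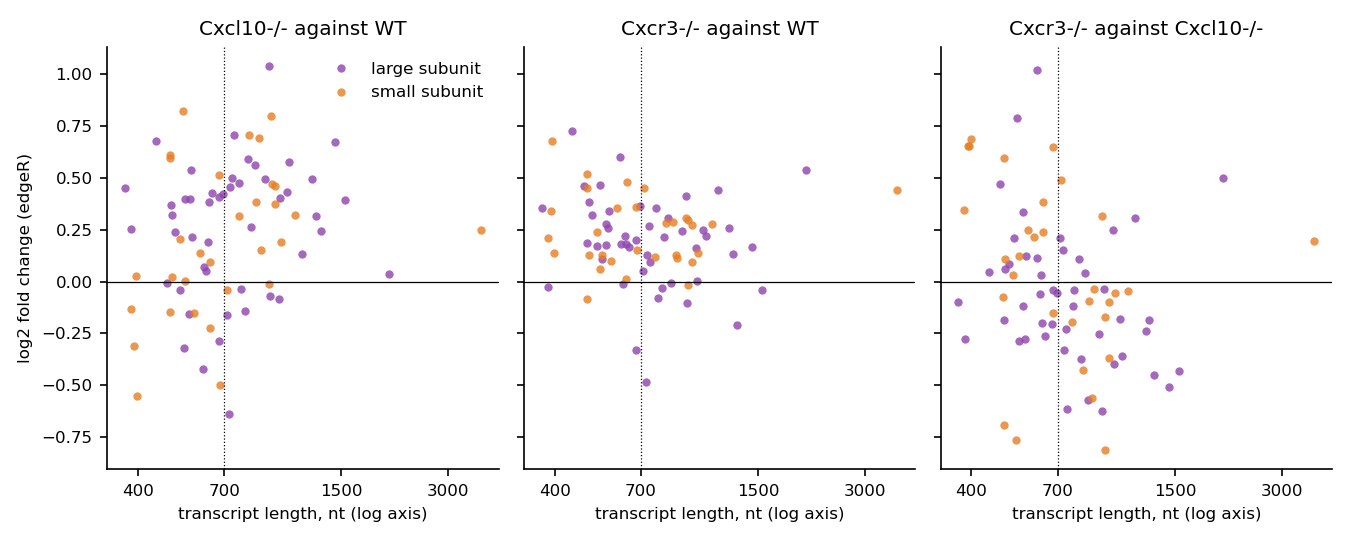
Log2 fold change (edgeR) of 79 members against transcript length (log axis) in the 3 comparisons, coloured by subunit; the dotted line is at 700 nt. Members below 700 nt lie lower than longer ones in Cxcl10-/- over WT (medians 0.16 and 0.38) and higher between the knockouts (0.07 and -0.18).

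Genes that share a pathway with the members were described from lists, to be read beside the 3.52% of all genes tested that rose in Cxcl10-/- over WT and the 3.7% that fell. Of 5 ribosomal proteins whose symbols the rule does not take, Rpsa, Fau and Rpl36al rose in Cxcl10-/- over WT, with log2 fold changes of 0.70, 0.72 and 0.57, and Rack1 did not pass the test. Of 15 other genes known to have TOP mRNAs, 3 elongation factor genes rose: Eef1a1, which brings aminoacyl-tRNA to the ribosome, by 0.65 on the log2 scale, its exchange factor subunit Eef1d by 1.18, and Eef2, which drives translocation, by 0.59; the list's median was 0.22. Of 16 regulators of TOP translation and S6 signalling, 0 rose and 1 fell, Eif4e, the cap-binding protein, with 497, 382 and 358 CPM in WT and 184, 205 and 226 in Cxcl10-/- libraries (-1.01, edgeR adjusted p = 0.0086). Of 12 tested chaperones and importers of ribosomal proteins, 1 fell, the importin Tnpo1, with 245, 243 and 261 CPM in WT, 110, 92.7 and 78.6 in Cxcl10-/- and 360, 289 and 351 in Cxcr3-/- libraries (-1.41, edgeR adjusted p = 0.00195). Of 9 tested genes of p53 and Mdm2 surveillance, 1 fell, Trp53inp1. Against WT, 0 genes of these 5 lists passed the test in Cxcr3-/- cells.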

How the data were processed

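RNA from 9 libraries, 3 mice of each genotype, was measured; per the design text each library is a separate mouse, so p-values measure the spread between mice. The authors deposited a table with an expected count and an FPKM for each gene and library, with fractional expected counts where reads are shared. Read trimming and alignment tools named in the submitters' processing notes are fastp and HISAT2, with StringTie and RSEM beside them; the sources used here give no version, genome build, annotation or FPKM denominator.

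Expected counts were rounded and fitted with edgeR 4.0.16 (R 4.3.3; quasi-likelihood test, TMM factors, 1 mean per genotype) over the 10866 genes whose mean FPKM in the 9 libraries was 1 or more, with Benjamini-Hochberg adjustment over all of them. Counts were preferred to the deposited FPKM for tests because mitochondrial transcripts take unequal shares of the totals the FPKM are scaled to. The filter passed 80 of 82 members; Rpl3l and Rpl10l did not pass. CPM are expected counts scaled to the TMM-adjusted library total. FPKM were used for levels between genes and for subunit sums. The lowest count of a member outside Rpl3l, Rpl10l, Rpl39l and Rpl7l1 was 1294, a counting error of 2.78%; amplified reads are not independent molecules, so this covers counting error only. Alternatives used limma 3.58.1 on log2(FPKM + 1) and log2(FPKM + 0.1), DESeq2 1.42.0, other scalings and filters, smooths on GC content and length (mgcv 1.9.3), a replicate block, each library left out, and, added after the data were seen, counts of copies added to their members. Length and GC content were taken from GENCODE M21, where 82 of 82 members matched; promoter starts came from RefSeq (GRCm38.p6), where 62 matched. The fit was also run on simulated counts. These were drawn for each gene on its own, without a deviation shared by the genes of a library. They do not show how the fit behaves with such a deviation.

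Members and lists were chosen with earlier results of these data known. Named are the stalk and 5S genes, Rps6, Rpl38, Rpl22, paralogs and a chosen list of anaemia genes. Also named are up to 8 members a direction and subunit with the smallest p among those called, and the 5 highest and 5 lowest in WT. Rps21, Rpl36a and the copies were named after their values were seen. Some members that the rule names, and their points in plots with gene names, are not reported here; they stay in all counts.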

Additional observations from a re-analysis of the deposited data

How the results depend on the processing

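Against WT, the number of members that rose in Cxcl10-/- cells was 36 with library totals, 34 with limma at either pseudocount and 30 with DESeq2, in place of 17, and the number that fell was 3 with DESeq2 and 7 with the GC content and length correction, in place of 1. Of all genes tested, 7.18% fell with DESeq2 and 2.07% with that correction, in place of 3.7%. DESeq2 called 2 members higher in Cxcr3-/- cells, in place of 0, beside 0.12% of all genes tested. Between the knockouts, the GC content and length correction gave 17 higher and 4 lower, in place of 7 and 10, with a median log2 fold change of 0.19 in place of -0.05, and limma gave 16 lower at either pseudocount. Of all genes tested, limma called 7.81% lower with a pseudocount of 1 and 7.16% with 0.1, in place of 5.41%. The median of members over WT kept its sign in every setting, between 0.17 and 0.37 in Cxcl10-/- and 0.15 and 0.31 in Cxcr3-/- cells. The cause of these shifts was not tested.

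Leaving out each library gave 6 to 30 higher, 0 to 2 lower and a median of 0.23 to 0.37 in Cxcl10-/- against WT. It gave 0 to 0 higher, 0 to 0 lower and 0.15 to 0.26 in Cxcr3-/- against WT, and 2 to 9 higher, 6 to 12 lower and -0.13 to 0.02 between the knockouts. The log2 ratio of large to small subunit was 0.20 in WT, 0.28 in Cxcl10-/- and 0.15 in Cxcr3-/- cells, and 0.19 to 0.21, 0.27 to 0.28 and 0.15 to 0.16 without single libraries. In the same order of genotypes it was -0.49, -0.41 and -0.49 from medians of log2(FPKM + 1), 0.22, 0.30 and 0.18 without paralogs, 0.38, 0.45 and 0.35 without the 5 most abundant members of each subunit, and 0.33, 0.38 and 0.27 from summed counts. Rpl39l, with few counts, had a log2 fold change of 0.12 in Cxcl10-/- cells and of -7.27 to 0.71 without single libraries; the lowest is without Cxcl10-/- replicate 2, which leaves 0 counts in both other libraries, so that the fitted value depends on the prior count. Library totals moved the median of all genes in Cxcl10-/- over WT from 0.06 to 0.15.

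Over all genes tested, the replicate numbers did not pair the samples, with correlations of deviations from -0.08 to 0.02 between same-numbered libraries. Members of a library shared a deviation, so the counts below do not show that members follow the number. The same counts over all genes tested are not given. Replicate 2 was the lowest of its group for 60, 68 and 53 of 80 members in WT, Cxcl10-/- and Cxcr3-/- cells. Replicate 3 was the highest for 51, 56 and 65. The source of this order was not tested. The replicate block gave 17 higher and 1 lower in Cxcl10-/- against WT, 0 and 0 in Cxcr3-/- against WT, and 8 higher and 10 lower between the knockouts, with medians of 0.24, 0.21 and -0.05. With this block, 1.79% of all genes tested rose and 2.28% fell in Cxcl10-/- against WT. The shares were 0 and 0% in Cxcr3-/- against WT, and 3.87 and 3.8% between the knockouts.

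Read counts of members outside the paralogs near 0 were high, but the number of RNA molecules behind them was not measured. With 3 mice a group, members short of the threshold are not shown to be unchanged.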
